A study of Mus musculus with 8 samples.

Results

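Periostin (Postn), Tgfbi and 3 tenascin genes (Tnc, Tnn and Tnxb) were followed as a set of 5 matricellular genes among 55335 gene identifiers measured by RNA sequencing. FPKM is fragments per kilobase of transcript, scaled to the library's fragments. The genes were chosen by family, 2 secreted fasciclin proteins and 3 tenascins, with their FPKM differences between the scaffolds already known. Those differences are therefore given as a description without a test. Of the 5 genes, 4 passed the filter on low values (1 FPKM or more in 4 or more of the 8 libraries) and Tnxb did not.

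The cells were MC3T3-E1, an established mouse line of pre-osteoblasts from the skull vault, kept for 3 days on one of 2 scaffolds. They were TABS, named Trio-Active bone scaffold by the submitters (4 libraries), and HA, a magnesium-doped hydroxyapatite (4 libraries). All 8 libraries came from cells with a scaffold and none from cells without, so a difference is TABS relative to HA. The sources used here do not say what TABS is made of. Nor do the labels say whether the 4 libraries of a scaffold were separate cultures, and the spread that p-values are based on may therefore be technical. Columns were assigned by library names that carry H for TABS and L for HA, and no gene in the data checks that assignment.

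Matricellular proteins sit in the extracellular matrix and act on cells and on matrix assembly more than as structural fibres. Periostin and the protein of Tgfbi are secreted paralogs built from repeated fasciclin domains. Both bind integrins, and both are classical targets of TGF-beta, the cytokine after which Tgfbi is named. Periostin, named for the periosteum, binds type I collagen, fibronectin and tenascin-C, and helps BMP-1 to activate lysyl oxidase, the enzyme that crosslinks collagen. Tenascins are large multimeric glycoproteins with EGF-like repeats, fibronectin type III repeats and a fibrinogen-like globe. Tenascin-C (Tnc) modulates adhesion to fibronectin, tenascin-W (Tnn) is found around developing bone and at the periosteum, and tenascin-X (Tnxb) associates with collagen fibrils in loose connective tissue.

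In GRCm38, Postn (ENSMUSG00000027750) lies on the forward strand of chromosome 3 from 54361109 to 54391037, and Tgfbi (ENSMUSG00000035493) on the forward strand of chromosome 13 from 56609523 to 56639562. Tnc (ENSMUSG00000028364) lies on the reverse strand of chromosome 4 from 63959785 to 64047015, and Tnn (ENSMUSG00000026725) on the reverse strand of chromosome 1 from 160085029 to 160153580. Tnxb (ENSMUSG00000033327) lies on the forward strand of chromosome 17 from 34670535 to 34719815. The annotation gives all 5 as protein-coding genes. Exons of Tnc overlap those of 8030451A03Rik by 176 bases on the opposite strand, but that gene reached at most 0.0196 FPKM. The overlap of Tnxb with the pseudogene Cyp21a2-ps is 3 bases, and the pseudogene was listed at 0 in all libraries.

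The promoters of Tnc and Tgfbi are shown because Tnc was lower on TABS while Tgfbi was higher. Each sequence is the 250 bases before a RefSeq transcription start of GRCm38.p6, read along the gene's strand. They lie at chr4:64047016-64047265 (reverse strand, Tnc) and chr13:56609336-56609585 (forward, Tgfbi). All 5 members were found in the RefSeq table. Tnc has a further start there that is not shown.
Tnc: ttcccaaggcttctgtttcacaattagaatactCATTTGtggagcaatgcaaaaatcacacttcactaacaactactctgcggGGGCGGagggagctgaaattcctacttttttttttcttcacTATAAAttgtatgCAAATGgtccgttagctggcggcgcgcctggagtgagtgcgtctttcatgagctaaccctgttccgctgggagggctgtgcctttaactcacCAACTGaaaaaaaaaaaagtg
Tgfbi: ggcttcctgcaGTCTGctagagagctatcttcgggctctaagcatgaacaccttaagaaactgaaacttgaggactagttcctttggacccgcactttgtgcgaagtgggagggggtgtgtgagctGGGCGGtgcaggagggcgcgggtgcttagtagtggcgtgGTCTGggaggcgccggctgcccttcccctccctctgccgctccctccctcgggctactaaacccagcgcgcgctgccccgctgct
Capitals mark every match, on either strand, to 7 short motifs, and no matches overlapped. These were TATAAA (the core of a TATA box), TGANTCA (AP-1), CAGAC (SMAD), CANNTG (E-box), GGGCGG (GC box), CATTCC (TEAD) and TGTGGT (RUNX). Tnc held TATAAA 126 bases before its start, beside 3 E-box matches and a GC box. Tgfbi held no TATAAA, a GC box and 2 matches to the SMAD motif (239 and 85 bases before the start). The window of the further Tnc start, not shown, also held a SMAD match, 70 bases before that start. Over the same 250 bases of 32817 RefSeq promoters, 12.4% held TATAAA, 42.2% the SMAD motif, 66.2% an E-box, 32.7% a GC box, 12.6% the TEAD motif, 14.0% the RUNX motif and 6.75% the AP-1 motif. The GC content of the windows was 44.8% in Tnc and 62.4% in Tgfbi, with a median of 52.4% over all promoters. A match is a stretch of letters and was not tested as a site.

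No library was identical to another. Of 10 osteoblast markers 9 passed the filter, 4 fell on TABS and 1 rose (limma, adjusted p under 0.05). Over all tested genes 2.90% fell and 4.49% rose. Ibsp, bone sialoprotein, fell from 46.8 to 55.2 FPKM on HA to 12.8 to 16.0 on TABS (-1.73 on the log2(FPKM + 1) scale, limma adjusted p = 1.51e-05). Alpl, Sp7 and Col1a1 fell as well, while Spp1, osteopontin, rose by 0.45 (limma adjusted p = 0.0207). The Spp1 call was lost when TABS 1, TABS 2 or HA 2 was dropped, and with no filter on low values (limma adjusted p = 0.164). Alpl stood at 1.13 to 1.8 FPKM on HA and at 0.373 to 0.518 on TABS. It passed the filter only through HA, so nothing is read from its call, which is 1 of the 4 above. The sum of the 10 markers, most of it Spp1, was 4360 to 4630 FPKM on HA and 4667 to 5224 on TABS. The part of these shifts in the results below was not tested. Of 11 library measures, 6 reached the smallest p that 4 against 4 libraries can give (exact permutation p = 0.0286, two-sided, adjusted p = 0.0524). They were the summed FPKM of the table (312629 to 317439 on HA and 304893 to 307263 on TABS) and 5 sums of cell type markers (osteoblast, leukocyte, contractile, endothelial and skeletal muscle), of which the last 2 stayed below 1 FPKM. The mitochondrial share of summed FPKM was 10.2% to 12.2% on TABS and 12.1% to 14.5% on HA (exact permutation p = 0.143, adjusted p = 0.196). The table gave no read totals. Among low values of single-exon genes, FPKM times length piled up at a step that, if it is 1 fragment, makes 1 FPKM over 1 kilobase worth 18.2 to 26.2 fragments per library. By that measure Postn rested on about 18000 to 55000 fragments per library, Tnn on 2100 to 4300, Tnc on 610 to 1600, Tgfbi on 170 to 360 and Tnxb on 85 to 160.

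Postn was by far the most abundant of the 5 genes in all 8 libraries. Its level was 357, 320, 367 and 404 FPKM in HA 1 to 4 and 187, 219, 171 and 199 FPKM in TABS 1 to 4. All TABS libraries lay below all HA libraries, with a gap of 101 FPKM between the highest TABS and the lowest HA value. The means were 362 ± 34.2 FPKM on HA and 194 ± 20.5 on TABS (SD, n = 4), so the TABS level was 53.6% of the HA level. On the log2(FPKM + 1) scale the difference was -0.90 ± 0.09 (SE), the 13th lowest among the 11280 genes in the fit. By mean FPKM Postn ranked 106th among all genes on HA and 196th on TABS.

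Tgfbi, its paralog, stood the other way round and at a far lower level. It was at 2.22, 3.29, 3.22 and 2.56 FPKM in HA 1 to 4 and at 4.75, 4.53, 4.27 and 4.93 FPKM in TABS 1 to 4. All TABS libraries lay above all HA libraries, and HA 1 and HA 4 were the lowest. The means were 2.83 ± 0.52 and 4.62 ± 0.285 FPKM (SD, n = 4), with the TABS level at 164% of the HA level and a difference of 0.56 ± 0.09 (SE) on the log2(FPKM + 1) scale. On that scale the pseudocount makes the change of a low gene look smaller, and the log2 ratio of the means was 0.71.

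Tnn was the most abundant tenascin. Its level was 29.0, 31.7, 29.8 and 26.7 FPKM in HA 1 to 4 and 19.6, 20.3, 20.04 and 20.8 FPKM in TABS 1 to 4. The groups did not overlap, and the TABS libraries lay within a narrow band. The means were 29.3 ± 2.08 and 20.2 ± 0.48 FPKM (SD, n = 4), or 68.9% of the HA level on TABS, with a difference of -0.51 ± 0.05 (SE) on the log2(FPKM + 1) scale. Its coefficient of variation on TABS was 2.38%, and 8.83% of tested genes varied less there.

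Tnc, the tenascin of remodelling and adhesion, was lower on TABS as well. It was at 8.71, 9.19, 7.20 and 7.47 FPKM in HA 1 to 4 and at 4.69, 5.23, 5.12 and 5.70 FPKM in TABS 1 to 4, again without overlap. The means were 8.14 ± 0.961 and 5.18 ± 0.415 FPKM (SD, n = 4), or 63.7% of the HA level on TABS, with a difference of -0.56 ± 0.08 (SE) on the log2(FPKM + 1) scale.

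Tnxb stayed below 1 FPKM in every library. It was listed at 0.43, 0.40, 0.33 and 0.34 FPKM in HA 1 to 4 and at 0.44, 0.52, 0.49 and 0.47 FPKM in TABS 1 to 4. The groups met almost without a gap, 0.01 FPKM apart. Its means were 0.376 ± 0.0474 and 0.48 ± 0.033 FPKM (SD, n = 4), or 128% of the HA level on TABS, and it was not in the fit.

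In the fit, 3 of the 4 members tested were called lower on TABS (Postn, Tnn and Tnc) and Tgfbi was called higher (limma, adjusted p under 0.05). The share of all tested genes called was 7.38% in either direction, 2.90% lower and 4.49% higher. The groups did not overlap in any of the 5 members, against 18.0% of tested genes and 9.11% of all genes above 0 in any library, which include Tnxb. Because the set was chosen with this comparison known, nothing is read from these counts. The median difference over all tested genes was 0.01 on the log2(FPKM + 1) scale.

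**Figure D1:**
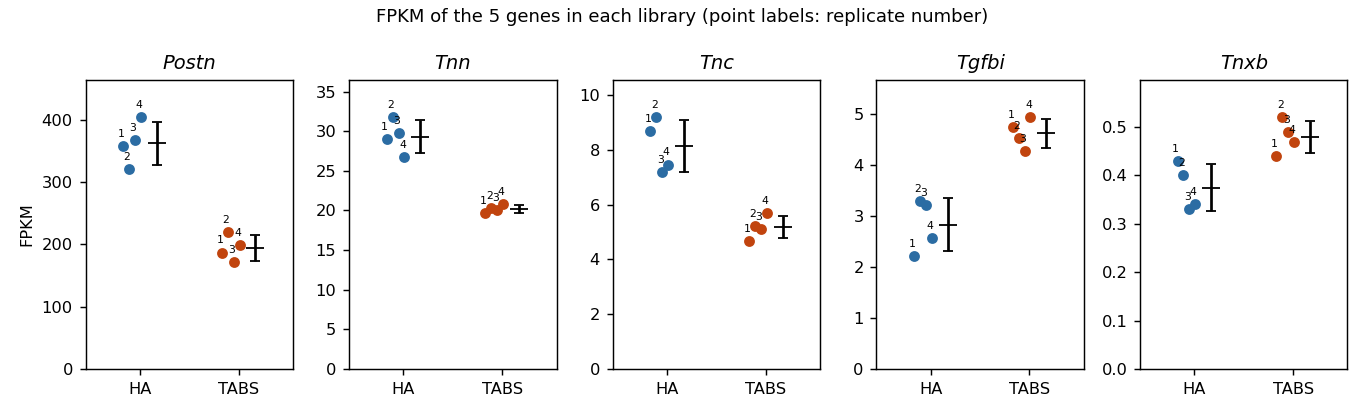
FPKM (y axis, from 0, 1 scale per gene) of Postn, Tnn, Tnc, Tgfbi and Tnxb in the 4 HA and 4 TABS libraries. Points are single libraries, and the dash with bars is the mean ± SD (n = 4). Postn, Tnn and Tnc lie lower on TABS and Tgfbi higher, while the Tnxb groups are 0.01 FPKM apart.

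By mean FPKM the order of the levels was the same on both scaffolds, but on TABS not all neighbours were separate. On HA it was Postn, Tnn, Tnc, Tgfbi and Tnxb, and the FPKM ranges of neighbours did not overlap. On TABS Postn, Tnn and Tnxb kept their places, but Tnc (4.69 to 5.70 FPKM) and Tgfbi (4.27 to 4.93 FPKM) overlapped and did not differ beyond their spread. FPKM is per length of transcript, so these levels can be compared between genes as far as the length that was used holds.

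Ratios of FPKM within a library do not depend on how the library was scaled. The Postn to Tgfbi ratio was 161, 97.3, 114 and 157 in HA 1 to 4 and 39.3, 48.5, 40.0 and 40.3 in TABS 1 to 4. Every HA ratio was at least 97.3 and no TABS ratio passed 48.5, and the mean ratio was 3.15 times as high on HA as on TABS. The tenascins stood to Tgfbi in a like way. The Tnc to Tgfbi ratio was 2.97 ± 0.704 on HA and 1.12 ± 0.0931 on TABS (SD, n = 4), and that of Tnn to Tgfbi 10.6 ± 1.72 and 4.38 ± 0.254, both without overlap.

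Postn and the tenascins Tnn and Tnc kept nearer to each other. The Postn to Tnc ratio ran from 34.8 to 54.0 on HA and from 33.4 to 42.0 on TABS. That of Postn to Tnn ran from 10.1 to 15.1 on HA and from 8.53 to 10.8 on TABS. Its mean was lower on TABS, 9.6 ± 0.94 against 12.5 ± 2.05 on HA (SD, n = 4). The Tnn to Tnc ratio was 3.62 ± 0.354 on HA and 3.91 ± 0.221 on TABS (SD, n = 4). All 3 ratios overlapped between the groups. Tnxb did not follow Tnc, and the ratio of Tnc to Tnxb was 21.7 ± 1.2 on HA and 10.8 ± 0.88 on TABS (SD, n = 4), without overlap.

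**Figure D2:**
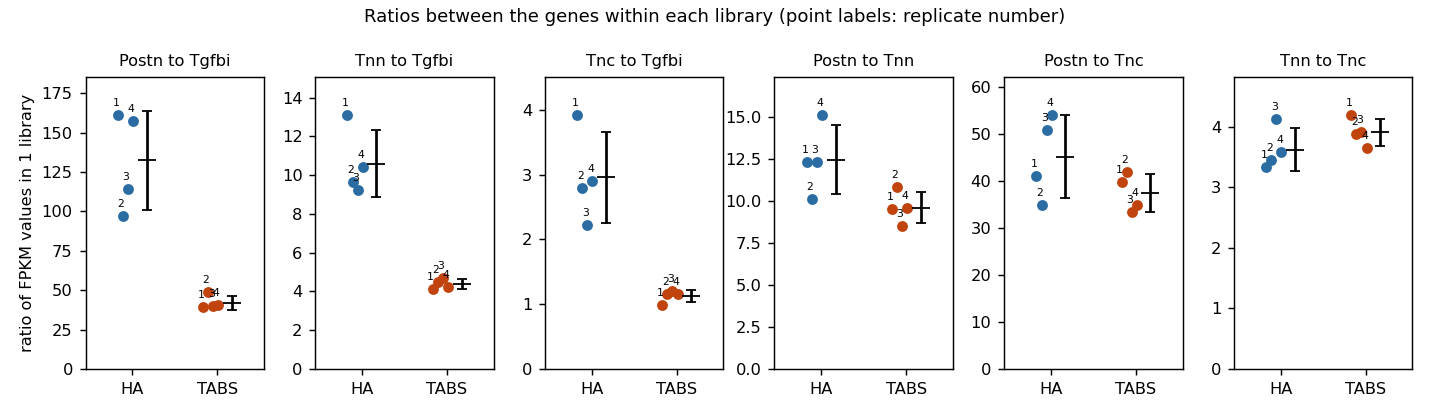
Ratio of FPKM values of 2 genes within each library (y axis, from 0, 1 scale per panel) for 4 HA and 4 TABS libraries. Points are single libraries and the dash with bars is the mean ± SD. The 3 ratios to Tgfbi are separate between groups, such as 97.3 to 161 on HA against 39.3 to 48.5 on TABS for Postn, and the 3 ratios among Postn, Tnn and Tnc overlap.

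Summed over the 5 genes, FPKM was 365 to 441 on HA and 201 to 250 on TABS, and Postn held 87.8% to 91.6% of that sum on HA and 85.1% to 87.8% on TABS. The 3 tenascins held 7.84% to 11.3% on HA and 10.4% to 12.8% on TABS. Tgfbi held 0.558% to 0.902% on HA and 1.81% to 2.20% on TABS.

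Within HA the genes did not all vary in the same way. HA 4 had the highest Postn and the lowest Tnn, and HA 2 had the lowest Postn and the highest Tnn, Tnc and Tgfbi. Tgfbi varied most within HA, with a coefficient of variation of 18.4% (91.4% of tested genes varied less), against 6.16% on TABS. Postn had 9.44% on HA and 10.6% on TABS, where the medians over tested genes were 7.58% and 6.05%.

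For each member in the fit, the 5 genes with the most similar values were taken by Pearson r of log2(FPKM + 1) over the 8 libraries, among 6467 genes with a mean of at least 5 FPKM. These are the highest of many values over 8 points in 2 groups, so they are a description with no test. Nearest to Postn were Aspn (asporin) and Ogn (osteoglycin), small leucine-rich matrix proteins, each with r = 0.993, then Nucb2, a calcium-binding protein gene (0.987), Fam114a1 (0.983) and Rpp14 (0.981). Aspn stood at 219 ± 31.0 FPKM on HA and 96.4 ± 10.3 on TABS (SD, n = 4), and Ogn at 292 ± 50.5 and 136 ± 22.2. With the group means taken out, r with Postn was 0.90 for Aspn and 0.96 for Ogn. Both genes were picked for their r over these same libraries, so nothing is read from the r that remained.

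Nearest to Tnn were Daam2, a formin of Wnt signalling (r = 0.997), Sp7, the osteoblast transcription factor osterix (0.994), Srpx (0.988), Ramp2, an accessory protein of the calcitonin receptor family (0.977), and the smooth-muscle actin gene Acta2 (0.971). Sp7 stood at 15.6 ± 0.853 FPKM on HA and 10.8 ± 0.177 on TABS (SD, n = 4). Nearest to Tnc were Clec11a, a secreted osteogenic lectin (0.988), Cyp26b1, a retinoic acid hydroxylase (0.987), Smpdl3b (0.985), and the matrix genes Sparc and Col3a1 (0.972 each). Clec11a stood at 29.9 ± 3.16 FPKM on HA and 15.6 ± 1.51 on TABS. Among the 5 nearest to Tgfbi were Stat5b, a cytokine-activated transcription factor (0.995), Ap2b1, an adaptor of clathrin coats (0.987), Myh9, non-muscle myosin (0.983), and Bag2, a chaperone partner (0.982). Their differences were small beside that of Tgfbi, from 0.09 for Ap2b1 to 0.21 for Bag2 on the log2(FPKM + 1) scale. No gene was among the 5 nearest of more than 1 member.

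**Figure D3:**
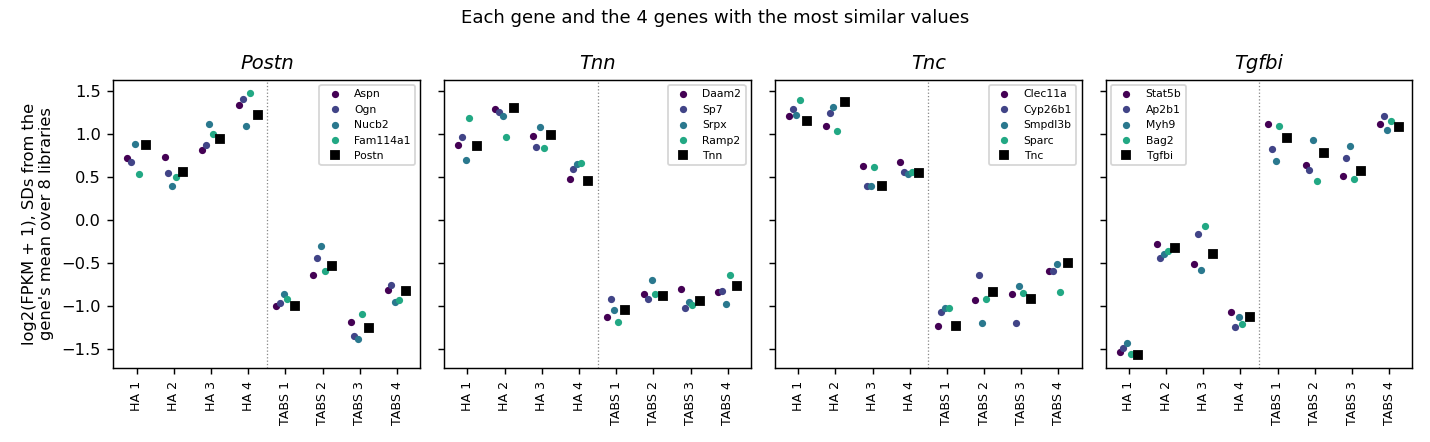
Log2(FPKM + 1) of Postn, Tnn, Tnc and Tgfbi (black squares) and of the 4 genes with the highest Pearson r to each (coloured points), in SDs from each gene's mean over the 8 libraries (y axis), by library (x axis). The genes near Postn, Tnn and Tnc are lower in TABS and those near Tgfbi higher. Postn is lowest in HA 2 among the HA libraries, and Tgfbi in HA 1.

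The remaining genes of both families stayed below 1 FPKM in every library. Stab1 and Stab2, receptors with fasciclin domains found on macrophages and sinusoidal endothelium, stood at 0.283 to 0.339 and 0.703 to 0.79 FPKM on HA, and at 0.278 to 0.314 and 0.627 to 0.676 on TABS. Exons of Stab1 overlap those of Nt5dc2 (155 to 208 FPKM) by 112 bases on the opposite strand. Tnr, the tenascin of the nervous system, was at 0.141 to 0.431 FPKM on HA and 0.177 to 0.445 on TABS. None of the 3 was in the fit.

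Around the members, 11 lists of genes were followed, with 157 genes in all, of which 115 were tested, and 22 rose and 13 fell on TABS (limma, adjusted p under 0.05). Over all tested genes 4.49% rose and 2.90% fell, and the counts of each list are to be read beside these shares. The lists were chosen with earlier results known, so nothing particular to them is read from the counts. Their median difference was 0.03, beside 0.01 over all tested genes. In the next paragraphs a value in brackets with the sign of a difference is that of TABS against HA, in log2(FPKM + 1), with its SE. Reads of genes that overlap on opposite strands cannot be told apart here. Among the named list genes, exons of Fosl1 overlap those of Ccdc85b (a mean of 10.3 FPKM on HA and 11.7 on TABS) by 1163 bases, and those of Mmp19 overlap Tmem198b (9.93 to 13.2 FPKM) by 789 bases. Shorter overlaps join Tgm2 with Rprd1b (370 bases) and Tagln with Pcsk7 (108 bases), and none of these 4 partner genes was called. Tagln also overlaps the antisense gene Gm48529 by 1241 bases (0.364 to 0.736 FPKM), Jun overlaps Junos by 232 bases (0.741 to 1.12 FPKM), and Itga8 overlaps E030013I19Rik by 372 bases (0.0495 to 0.163 FPKM). Gm47302, a miRNA gene within exons of Col3a1 on the same strand, was listed at 296 to 573 FPKM.

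Of 16 subunits of integrins that serve as receptors for these proteins, 8 were tested, 2 rose and 1 fell (median 0.14). Itgb5, which pairs with the alpha-v chain as a receptor for periostin and TGFBI, rose from 143 ± 2.12 to 184 ± 3.77 FPKM (SD, n = 4, 0.36 ± 0.04, limma adjusted p = 0.000893). Itga8, whose integrin binds tenascins and nephronectin, fell from 3.31 ± 0.273 to 2.42 ± 0.183 FPKM (-0.33 ± 0.06, adjusted p = 0.0132). Itgb2, a chain of leukocyte integrins, rose from 1.27 ± 0.135 to 1.93 ± 0.0909 FPKM (0.37 ± 0.06, adjusted p = 0.00556). Of its alpha partners in the list, Itgam was listed at 0 in all libraries. Of 7 other surface receptors 5 were tested and none was called (median 0.08), the nearest being the proteoglycan gene Sdc4 (0.14 ± 0.04, adjusted p = 0.0591), which was called after rescaling to TPM (0.0237) and with a filter of 5 FPKM (0.0484).

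Among 20 matrix proteins described as partners of the members, 15 were tested, 4 fell and 0 rose (median -0.12). They were the fibrillar collagen genes Col3a1 (from 196 ± 14.4 to 124 ± 9.21 FPKM, -0.66 ± 0.07, limma adjusted p = 0.00102) and Col1a1 (-0.39 ± 0.08, adjusted p = 0.0269), and the small proteoglycan genes Fmod (from 273 ± 27.1 to 210 ± 3.97 FPKM, -0.37 ± 0.07, adjusted p = 0.0127) and Dcn (-0.28 ± 0.06, adjusted p = 0.0303). Only 2 of the 4 calls were left when TABS 1, TABS 3, TABS 4 or HA 2 was dropped, and 7 genes were called lower after correction for GC content and length. The call on Col1a1 was also lost without TABS 2, and that on Dcn without HA 1 and after the correction.

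Of 14 enzymes that crosslink or modify matrix, 13 were tested, 5 rose and 1 fell (median 0.06). Tgm2, tissue transglutaminase, rose to 31.1 ± 0.437 FPKM (SD, n = 4, 0.61 ± 0.03, limma adjusted p = 0.000112), Fam20c, the kinase of secreted phosphoproteins, by 0.51 ± 0.05 (adjusted p = 0.00103), and Loxl1, a lysyl oxidase relative, by 0.49 ± 0.07 (adjusted p = 0.00397). Pcolce2, an enhancer of procollagen processing by BMP-1, fell from 8.68 ± 0.691 to 4.77 ± 0.0692 FPKM (-0.74 ± 0.05, adjusted p = 0.00034). Of 14 proteases described as cleaving a member, 9 were tested, 2 rose and 1 fell (median 0.01). Plat, tissue plasminogen activator (0.33 ± 0.04), and Mmp19 (0.30 ± 0.04) rose, and the collagenase gene Mmp13 fell (-0.32 ± 0.05), with limma adjusted p of 0.00337, 0.00411 and 0.00674.

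Of 21 genes of TGF-beta ligands, receptors, latent complex and SMADs, 16 were tested, 5 rose and 0 fell (median 0.09). They included Tgfb3 (from 17.2 ± 0.202 to 21.1 ± 0.382 FPKM, 0.28 ± 0.03, limma adjusted p = 0.00212), the latent-complex genes Ltbp3 (0.33 ± 0.05, adjusted p = 0.00458) and Ltbp4 (0.30 ± 0.06, adjusted p = 0.0268), and the signal transducer gene Smad3 (0.30 ± 0.05, adjusted p = 0.012). The remaining call, on Tgfb2 (limma adjusted p = 0.0489), was lost whichever library was dropped. Dropping TABS 1, TABS 3, HA 3 or HA 4 left 3 calls, and in each case Ltbp4 was among those lost. Of 22 commonly used TGF-beta response genes outside the set, 17 were tested, 1 rose and 4 fell (median -0.01). Acta2, the smooth-muscle actin gene, fell from 188 ± 12 to 116 ± 10.1 FPKM (-0.70 ± 0.07, adjusted p = 0.000926), as did Ccn1, a matricellular gene (-0.50 ± 0.06, adjusted p = 0.00169), and Tagln, an actin-binding protein gene (-0.37 ± 0.06, adjusted p = 0.00856). Lrrc15, a membrane protein gene of activated fibroblasts, rose (0.25 ± 0.04, adjusted p = 0.0124), and 2 genes were called higher without TABS 1.

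Of 27 transcription factors and cofactors described at the Postn or Tnc genes, 23 were tested, 4 rose and 0 fell (median 0.06). Jun (37.6 ± 3.23 FPKM on HA and 59.6 ± 1.63 on TABS, 0.65 ± 0.06, limma adjusted p = 0.000718) and Fosl1 (0.53 ± 0.10, adjusted p = 0.0122), subunits of AP-1, rose, with Ets2, an ETS-family factor (0.45 ± 0.07, adjusted p = 0.00674), and Rbpj, the DNA-binding partner of Notch (0.34 ± 0.06, adjusted p = 0.012). Of 21 other matricellular genes 15 were tested, 3 rose and 4 fell (median 0.08). Spon2 rose from 9.10 ± 0.791 to 18.1 ± 2.0 FPKM (0.92 ± 0.08, adjusted p = 0.000652), while Ogn (-1.09 ± 0.14, adjusted p = 0.00257), Ccn1 and the collagen-binding protein gene Sparc (-0.40 ± 0.05, adjusted p = 0.00262) fell. Of the 3 calls higher, 1 was left when TABS 1 or TABS 2 was dropped.

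**Figure D4:**
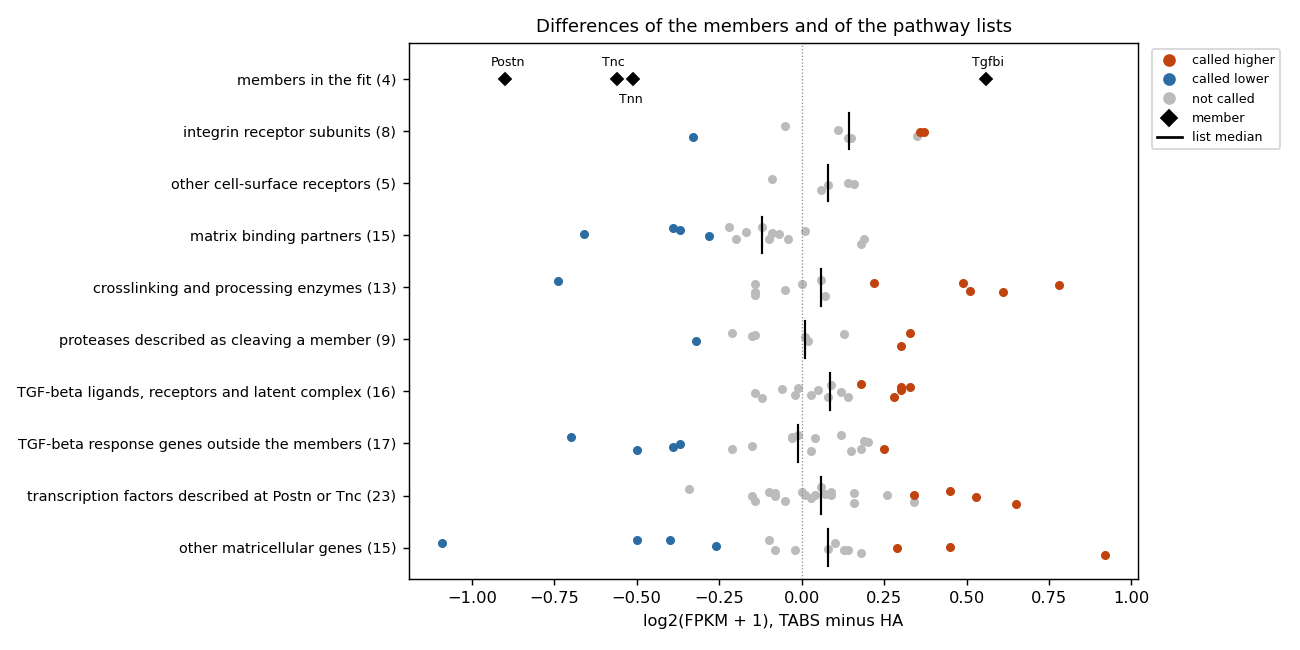
Difference of each tested gene, as log2(FPKM + 1) on TABS less that on HA (x axis), by list (y axis, number of tested genes in brackets). Orange and blue points are genes called higher or lower by limma, grey points are not called, black bars are list medians and diamonds are the 4 members in the fit. Postn, Tnc and Tnn lie at -0.90, -0.56 and -0.51 and Tgfbi at 0.56.

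Markers of other cell types were summed in each library. Those of contractile myofibroblasts were lower on TABS, as was Postn, at 368 to 426 FPKM on HA and 278 to 313 on TABS. Of these 8 markers 6 were tested, 5 were called lower and 0 higher, where 2.90% of all tested genes were called lower and 4.49% higher. The part of such cells in the Postn result was not tested. In such bulk samples fewer cells of a type and less RNA per cell cannot be told apart. For Tgfbi, a gene also abundant in macrophages, 9 of 10 leukocyte markers stayed below 1 FPKM. Of them, Tyrobp, Aif1 and Itgam were listed at 0 in all libraries, and the sum over the 10 was 18.7 to 20.5 FPKM on HA and 11.7 to 16.7 on TABS, mostly from Lyz2 (17.6 to 19.8 and 10.7 to 15.9 FPKM). Cd68 was at 0.19 to 0.249 FPKM on HA and 0.173 to 0.346 on TABS. The part of leukocytes in the Tgfbi result was not tested.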

How the data were processed

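MC3T3-E1 RNA was sequenced in 8 libraries (paired reads of 150 bases, per the labels' protocols). The authors deposited 1 FPKM value per gene and library. The submitters' processing notes name fastp, STAR, DESeq2 and build GRCm38. What made the FPKM values, with which annotation and strand setting, the sources used here do not say, so overlapping genes on opposite strands cannot be told apart.

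Here, 11280 genes with 1 FPKM or more in 4 or more libraries were compared on log2(FPKM + 1), a pseudocount of 1, by limma 3.58.1 in R 4.3.3 (variance trend, two-sided, Benjamini-Hochberg adjusted p under 0.05). GENCODE M21 gave symbols, positions and lengths for 55154 of 55335 identifiers. Low FPKM values gave no whole reads (34.6% to 37.5% within 0.02 of a step), so no count test was run. Library measures were compared by exact permutation over 70 assignments (smallest possible p 0.0286). The fit was tested on simulated data. Members and lists were chosen with earlier results of these data known.

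Named genes were the members, Stab1, Stab2 and Tnr, up to 4 called genes of each list by smallest adjusted p (or the 1 nearest the threshold), and the 5 genes most like each member among those that are not predicted gene models. Genes that overlap these, Itgam, Tgfb2 and leukocyte markers were named after their values were seen. The remaining gene near Tgfbi, the promoters of Postn and Tnn and 1 exon overlap are not reported here. Alternatives changed the filter, pseudocount, scaling, variances and libraries, corrected for GC content and length, or took the replicate number as a block.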

Additional observations from a re-analysis of the deposited data

Results flagged for a closer look

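The Postn to Tgfbi ratio reached 48.5 in TABS 2, while TABS 1, 3 and 4 lay between 39.3 and 40.3. The gap to the nearest library was 0.89 of the group's range, above the 95% limit of Dixon's test for 4 samples. Chance alone gives such a gap in about 1 in 20 groups, and 48 groups of values were examined. The TABS 2 ratio was still below all 4 HA ratios.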

How the results depend on the processing

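Postn, Tnn and Tnc kept their direction under 20 alternatives each, Tgfbi under 19 and Tnxb under 16, but the members were chosen with these directions known, so this is no sign of stability. With 1 library left out their differences on the log2 scale ran from -0.96 to -0.84 (Postn), -0.56 to -0.48 (Tnn), -0.61 to -0.51 (Tnc), 0.48 to 0.62 (Tgfbi) and 0.09 to 0.12 (Tnxb), and that of the log2 Postn to Tgfbi ratio (-1.63) from -1.77 to -1.52. Only Tnxb moved by more than its spread, from 0.11 to 0.29 with a pseudocount of 0.1, 0.16 with 0.5 and 0.23 after rescaling to TPM, since a pseudocount shrinks low values more. Genes called over the whole table (506 higher and 327 lower) became 915 higher after rescaling to TPM and 195 lower with no filter, and ran from 239 to 425 higher and 167 to 279 lower with 1 library left out. In the lists, 13 lower genes became 22 after the GC and length correction. Same-numbered libraries of the 2 groups correlated in their deviations at 0.105, 0.05, -0.104 and -0.058, and differently numbered ones at -0.164 to 0.177. These values gave no sign of pairing by number. They cannot exclude a pairing that acts on few genes. With the replicate block, genes called became 136 higher and 94 lower (169 and 162 with the GC and length correction as well), and list genes 14 higher and 8 lower (14 higher with the correction). Tgfbi was not called in either of these fits, nor tested with a filter of 5 FPKM. With the block the calls on Itgb2, Mmp13, Smad3, Ltbp4, Lrrc15, Ets2, Tagln, Dcn, Col1a1 or Spp1 were lost in at least 1 of the 2 fits. Those on Col1a1, Dcn, Ltbp4 and Spp1 were lost with no filter, and that on Col1a1 with quantile normalization. Depth limits Tnxb most.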
